A study of Mus musculus with 15 samples.

Results

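Serotonin, 5-hydroxytryptamine, is made in the gut chiefly by enterochromaffin cells, a class of enteroendocrine cell in the epithelium. The 5 genes described here make, store and break it down, and they are Tph1, Ddc, Slc18a1, Maoa and Maob, chosen by symbol from the 22063 genes of the deposited table. All 5 were present in the table and all 5 passed the filter on low values. Libraries of colon from wild-type C57BL/6 mice fell into 3 groups of 5, labelled Control, AOM/DSS and WMW-H. Azoxymethane (AOM) is a carcinogen and dextran sulfate sodium (DSS) injures the colon epithelium, and together they are used to induce colorectal tumours in mice. Wumei Wan, the subject of the series, is a traditional herbal formula, and the third group was labelled with WMW-H alone. The series text calls it a treatment group, but the labels do not state that these animals also had AOM and DSS. Dose, schedule, age and the number of mice behind a library are not given in the labels.

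Tph1 encodes the tryptophan hydroxylase of cells outside the nervous system, the rate-limiting enzyme of serotonin synthesis, which turns tryptophan into 5-hydroxytryptophan with tetrahydrobiopterin as cofactor. Ddc, aromatic amino acid decarboxylase, then removes the carboxyl group with the help of pyridoxal phosphate, and Slc18a1 (vesicular monoamine transporter VMAT1) loads the amine into secretory granules. Released serotonin acts on receptors of neurons, muscle and epithelium and is cleared by the transporter Slc6a4 into surrounding cells, where monoamine oxidases of the outer mitochondrial membrane oxidise it. Maoa prefers serotonin as its substrate, and Maob prefers phenylethylamine.

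The sequence before the start of a gene is where promoter elements lie, and it is shown for the 3 members that RefSeq's promoter table for assembly GRCm38.p6 held, namely Maoa, Tph1 and Ddc. Maob and Slc18a1 are named only. Each window is the 250 bases upstream of an annotated start, written 5′ to 3′ on the gene's strand, with GC boxes (GGGCGG, on either strand) in capitals. For Tph1 and Ddc the table held a pair of starts, and the window of the more downstream start is printed for each.
Maoa (chrX:16619448-16619697, plus strand): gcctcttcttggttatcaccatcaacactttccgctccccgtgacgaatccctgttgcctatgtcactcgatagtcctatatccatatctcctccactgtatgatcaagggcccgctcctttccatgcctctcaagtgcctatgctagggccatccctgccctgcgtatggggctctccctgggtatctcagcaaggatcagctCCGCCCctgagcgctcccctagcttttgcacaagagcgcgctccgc
Tph1 (chr7:46667378-46667627, minus strand): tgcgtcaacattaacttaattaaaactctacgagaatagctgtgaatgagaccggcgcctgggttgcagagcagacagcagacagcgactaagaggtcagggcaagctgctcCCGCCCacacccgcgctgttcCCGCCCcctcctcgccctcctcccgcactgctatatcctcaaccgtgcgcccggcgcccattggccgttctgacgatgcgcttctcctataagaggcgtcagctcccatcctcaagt
Ddc (chr11:11890409-11890658, minus strand): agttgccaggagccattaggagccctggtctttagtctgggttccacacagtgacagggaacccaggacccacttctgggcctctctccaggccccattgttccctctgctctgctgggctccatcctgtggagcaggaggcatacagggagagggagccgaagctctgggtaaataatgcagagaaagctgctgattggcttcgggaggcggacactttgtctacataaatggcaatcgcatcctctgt
The Maoa window held 1 GC box, 46 bases before the start, and the Tph1 window held 2, at 138 and 117 bases. Among all 32526 windows of this length in the table, 33.0% held at least 1 GC box. The Ddc window had none, and it shared with that of Tph1 the letters CCAAT (either strand), which 33.8% of all windows held. In the windows of the upstream starts, which are not printed, Tph1 had 2 matches to GCGTG (either strand), the core letters of aryl hydrocarbon receptor sites, and Ddc had 1, against 28.4% of all windows with any. None of the printed windows held these letters. The GC content was 56.8% in the Maoa window, 58.8% in that of Tph1 and 56.0% in that of Ddc, beside a median of 52.4% over all windows. These matches describe letters, and binding was not measured. Maoa and Maob lie next to each other on chromosome X in the RefSeq annotation.

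Levels are given in FPKM, fragments per kilobase of a transcript relative to the depth of the library, as the authors deposited them, so they can be compared between genes per length. Differences are on the log2(FPKM + 1) scale from limma, two-sided, and a gene is called, or said to have risen or fallen, where the p-value adjusted over all 12917 genes tested is below 0.05. The labels do not say that the 5 libraries of a group came from separate animals, so the p-values measure only the spread between these libraries. That spread was narrow and the groups lay far apart, so a call is common in these data: 66.1% of tested genes were called in AOM/DSS versus Control, 66.8% in WMW-H versus AOM/DSS and 59.5% in WMW-H versus Control. The size of a change and its place among all genes are therefore given with each call of a member. The median change of all tested genes was 0.12, -0.07 and 0.05 in these comparisons. Of the genes called in AOM/DSS versus Control 68.9% were higher, and 51.4% after rescaling with median-of-ratios size factors, which moved that median to 0.01. No member's call in this comparison was lost and none changed direction under that rescaling. The depth read from the low values was 16360000 to 21140000 fragments per library. The labels name colon epithelial cells, but markers of other cells were present in every group and differed between groups. A list of pancreatic acinar genes made up 7.06 to 7.19% of summed FPKM in Control, 2.19 to 2.22% in AOM/DSS and 3.26 to 3.34% in WMW-H. Among its most abundant genes, Zg16 and Klk1 were at 0.864 and 0.54 of the control mean in AOM/DSS. Ctrb1, Cela2a and Prss2 were at 0.202, 0.23 and 0.254 of it. How much of the share was pancreatic RNA was not tested. Genes of the male accessory glands summed to at most 4.86 FPKM in Control and WMW-H and to 2868 to 3002 FPKM in AOM/DSS. WMW-H replicate 3 stood apart from the other 14 libraries on the third principal component (score 16.7, the others -5.72 to 1.56), and member results without it are given below.

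All 5 members were called between AOM/DSS and Control, 2 higher and 3 lower, against 66.1% of all genes (45.5% higher, 20.6% lower). Slc18a1 and Ddc were higher in AOM/DSS, and Tph1, Maoa and Maob were lower. Between WMW-H and AOM/DSS 4 of 5 were called, against 66.8% of all genes (25.9% higher, 40.9% lower), with Tph1, Maoa and Maob higher and Slc18a1 lower. Between WMW-H and Control 3 of 5 were called, against 59.5% of all genes (35.4% higher, 24.1% lower), and Tph1, Ddc and Slc18a1 were all higher. The median change of the 5 members was -0.27, 0.34 and 0.28 in the 3 comparisons, beside 0.12, -0.07 and 0.05 over all tested genes. The groups did not overlap for 4 members in AOM/DSS versus Control (2 higher, 2 lower), where 52.9% of all genes did not (36.9% higher, 16% lower). They did not overlap for 4 in WMW-H versus AOM/DSS (3 higher, 1 lower), where 51.2% of genes did not (18.8% higher, 32.3% lower), and for 2 in WMW-H versus Control (both higher), where 42.3% did not (25.3% higher, 17% lower). With shares this high, being called or not overlapping does not set the members apart. The same shares of all genes called stand behind the counts of the other gene lists below. Each pair of comparisons shares a group of libraries, so they are not independent of each other.

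**Figure D1:**
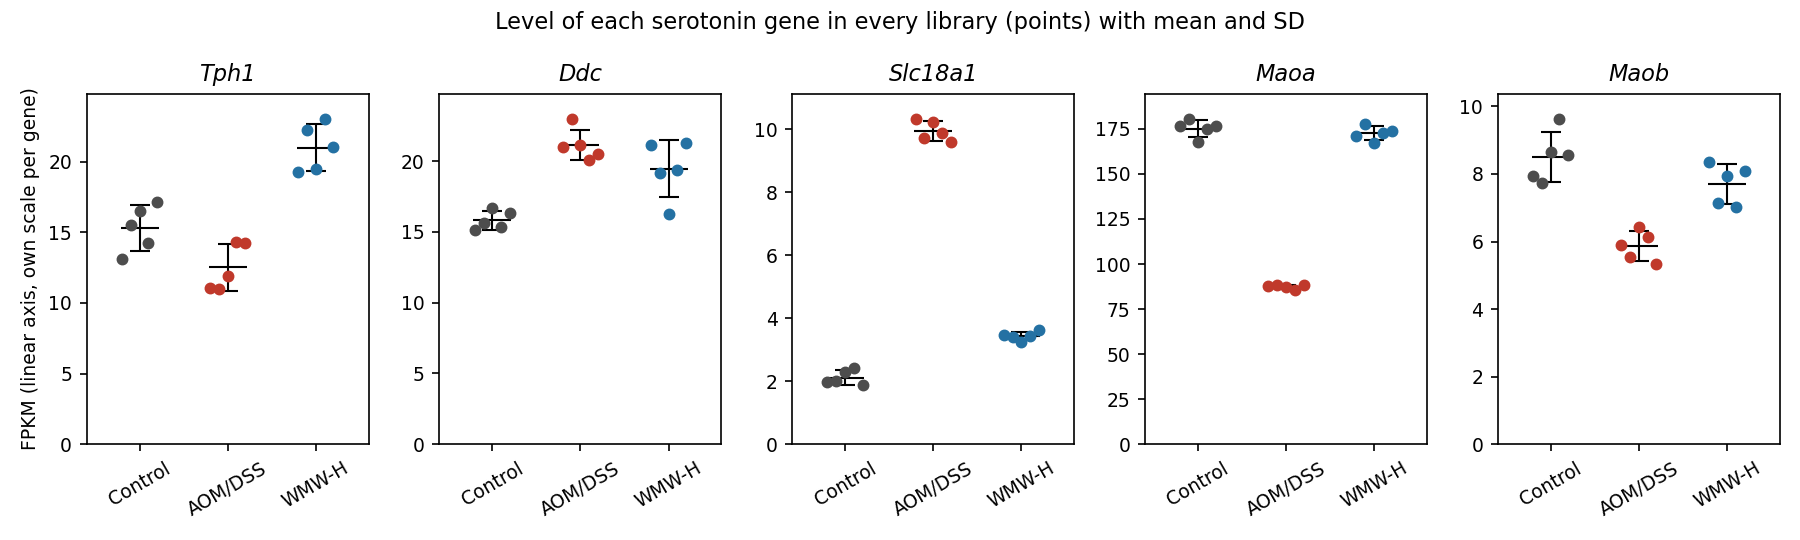
FPKM of Tph1, Ddc, Slc18a1, Maoa and Maob (vertical axes from 0, each gene on its own scale) in all 15 libraries by group; points are libraries, horizontal bars the mean and whiskers the SD (n = 5). Slc18a1 is highest and Maoa and Maob are lowest in AOM/DSS, without overlap with the other groups, and Tph1 is highest in WMW-H.

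Synthesis begins with Tph1 (ENSMUSG00000040046). Its levels in Control replicates 1 to 5 were 13.1, 15.5, 16.5, 14.3 and 17.1 FPKM. In AOM/DSS they were 11.0, 11.0, 11.9, 14.3 and 14.3 FPKM. In WMW-H they were 19.3, 22.2, 19.5, 23.0 and 21.02 FPKM. Control and AOM/DSS overlapped, while every WMW-H library lay above every library of the other groups. The means were 15.3 ± 1.65, 12.5 ± 1.66 and 20.99 ± 1.64 FPKM (SD, n = 5 each). Tph1 fell in AOM/DSS by 0.27 on the log2 scale (SE 0.08, adjusted p = 0.00836), to 0.818 of the control mean, and 13.2% of tested genes fell as much or more. An exact permutation of the 10 libraries, two-sided, gave p = 0.0476 for that difference, where 0.00794 is the smallest possible. From AOM/DSS to WMW-H it was higher by 0.71 (SE 0.08, adjusted p = 1.14e-06), a 1.68-fold higher mean. Of the tested genes 2.34% rose as much or more. Against Control it was higher in WMW-H by 0.43 (adjusted p = 0.000272), or 1.37-fold (10.3% of genes rose as much or more), so the WMW-H level did not lie between those of the other groups but above both.

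Ddc (ENSMUSG00000020182) catalyses the second step, and also makes dopamine and other amines in cells outside the enteroendocrine lineage. Its levels in Control were 15.1, 15.7, 16.7, 15.3 and 16.3 FPKM. In AOM/DSS they were 21.02, 22.9, 21.1, 20.1 and 20.5 FPKM. In WMW-H they were 21.1, 19.1, 16.3, 19.4 and 21.2 FPKM. All AOM/DSS libraries lay above all Control libraries, and 4 of 5 WMW-H libraries did so too, replicate 3 being within the control range. Ddc rose by 0.40 in AOM/DSS (SE 0.06, adjusted p = 1.68e-05), from 15.8 ± 0.661 to 21.1 ± 1.09 FPKM (SD, n = 5), 1.34-fold, and 18% of tested genes rose as much or more. WMW-H, at 19.4 ± 2.01 FPKM, was 0.28 above Control (adjusted p = 0.000715), with 21.7% of genes as high or higher, and 0.34 above it without WMW-H replicate 3. The difference between WMW-H and AOM/DSS was -0.12 (95% interval -0.24 to 0.01, adjusted p = 0.0853) and was not called. It was -0.06 without WMW-H replicate 3 (adjusted p = 0.257), and it passed the threshold without WMW-H replicate 1 (-0.15, adjusted p = 0.0402) or 5 (-0.15, adjusted p = 0.0367). After conversion to TPM, which gives every library the same total, it was -0.17 with an adjusted p of 0.0207.

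Slc18a1 (ENSMUSG00000036330), the granule transporter, changed most among the 5. Its levels in Control were 1.96, 2.01, 2.31, 2.42 and 1.89 FPKM. In AOM/DSS they were 10.3, 9.72, 10.2, 9.88 and 9.59 FPKM. In WMW-H they were 3.48, 3.41, 3.26, 3.43 and 3.63 FPKM. The 3 groups did not overlap, with Control lowest, WMW-H above it and AOM/DSS highest. The means were 2.12 ± 0.233, 9.94 ± 0.316 and 3.44 ± 0.133 FPKM (SD, n = 5 each). The AOM/DSS mean was 4.70-fold the control mean, a rise of 1.82 on the log2(FPKM + 1) scale (SE 0.05, adjusted p = 8.43e-15). Only 1.39% of tested genes rose as much or more. From AOM/DSS to WMW-H it fell by 1.301 (SE 0.05, adjusted p = 2.14e-12), to 0.346 of the AOM/DSS mean, and 1.04% of genes fell as much or more. WMW-H remained 0.51 above Control (adjusted p = 3.67e-07), 1.63-fold, where 7.28% of genes were as high or higher. At the depths found, these levels correspond to 35 to 203 fragments per kilobase of transcript in a library, so the low control values carry more counting error than those of the other members.

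Of the genes of breakdown, Maoa (ENSMUSG00000025037) had the higher level, and it was the most abundant member in every group. Its levels in Control were 176, 180.2, 168, 175 and 177 FPKM. In AOM/DSS they were 87.6, 88.2, 87.1, 85.7 and 88.6 FPKM. In WMW-H they were 171, 178, 167, 173 and 174 FPKM. Every AOM/DSS library was far below all others, and Control and WMW-H overlapped. The means were 175 ± 4.68, 87.4 ± 1.14 and 173 ± 3.89 FPKM (SD, n = 5 each). Maoa fell by 0.99 in AOM/DSS (SE 0.02, adjusted p = 2.63e-16), to 0.499 of the control mean, and 1.97% of tested genes fell as much or more. In WMW-H it was 0.97 above AOM/DSS (SE 0.02, adjusted p = 1.07e-15), 1.97-fold, and 0.952% of genes rose as much or more. WMW-H and Control differed by -0.02 (95% interval -0.07 to 0.03, adjusted p = 0.456), which was not called. With median-of-ratios size factors that difference was -0.07 and called (adjusted p = 0.00908). Maoa has a single annotated transcript of 4167 bases, and 6411 to 15530 fragments per library lay behind its values.

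Maob (ENSMUSG00000040147) was much less abundant, with 13.5 to 24.9 times as much Maoa in each library. Its levels in Control were 7.93, 7.73, 8.64, 9.61 and 8.55 FPKM. In AOM/DSS they were 5.88, 5.54, 6.43, 6.14 and 5.33 FPKM. In WMW-H they were 8.35, 7.14, 7.93, 7.02 and 8.08 FPKM. AOM/DSS was again below both other groups without overlap, and Control and WMW-H overlapped. Maob fell by 0.47 in AOM/DSS (SE 0.06, adjusted p = 6.25e-06), from 8.49 ± 0.737 to 5.87 ± 0.444 FPKM (SD, n = 5), to 0.691 of the control mean, and 6.77% of genes fell as much or more. WMW-H, at 7.70 ± 0.591 FPKM, was 0.34 above AOM/DSS (adjusted p = 0.000164), 1.31-fold, with 12.7% of genes rising as much or more. Against Control it was -0.12 (95% interval -0.26 to 0.01, adjusted p = 0.104), not called as deposited, but called with size factors (-0.17, adjusted p = 0.0309) and with quantile normalization (-0.20, adjusted p = 0.0124).

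**Figure D2:**
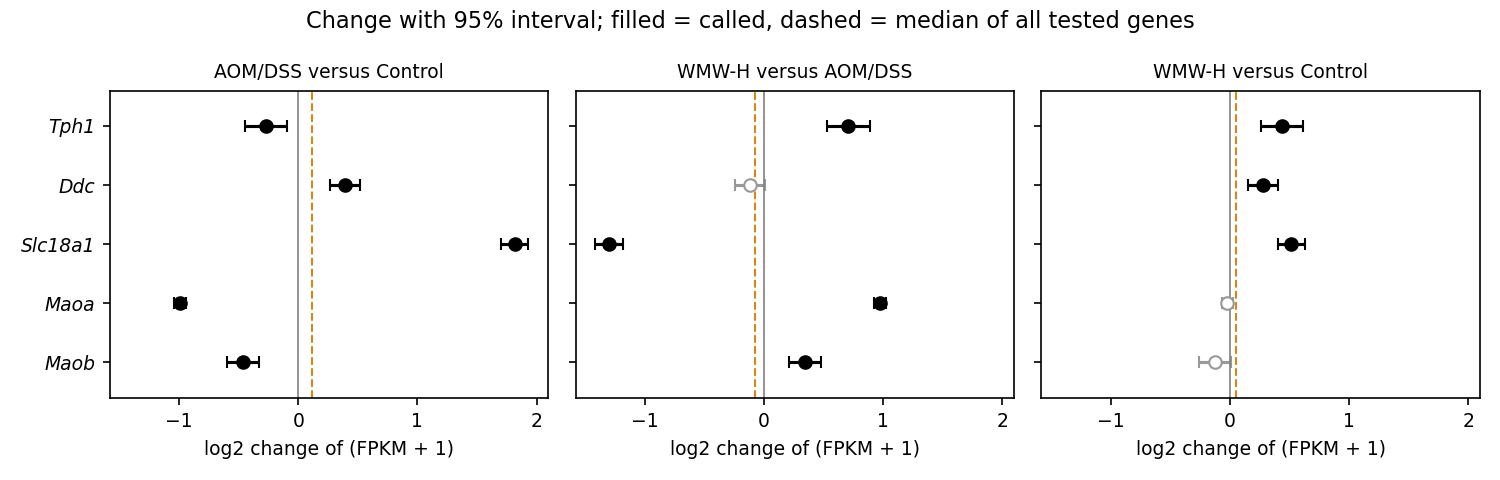
Change in log2(FPKM + 1) of each member (horizontal axis) with its 95% interval in the 3 comparisons; filled points are called, open points not, and the dashed line is the median of all tested genes. Maoa and Maob lie below 0 in AOM/DSS versus Control and above 0 in WMW-H versus AOM/DSS, and Slc18a1 the reverse.

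Leaving out WMW-H replicate 3 changed no member's call. Without it, the difference between WMW-H and AOM/DSS was 0.73 for Tph1, -1.29 for Slc18a1, 0.98 for Maoa and 0.33 for Maob. Against Control it was 0.46 for Tph1 and 0.53 for Slc18a1, and for Maoa and Maob, which stayed uncalled, -0.01 and -0.13.

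The order of levels differed between groups. In Control it ran Maoa, Ddc, Tph1, Maob, Slc18a1, with Ddc and Tph1 overlapping. In AOM/DSS Slc18a1 stood above Maob, and no neighbours in the order overlapped. In WMW-H Tph1 and Ddc overlapped, Tph1 having the higher mean, and Slc18a1 was again the lowest.

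Ratios within a library show how the members shifted against each other and do not depend on the scaling of that library. They are descriptions without a test. The Ddc to Tph1 ratio was 1.04 ± 0.0773 in Control, 1.72 ± 0.295 in AOM/DSS and 0.930 ± 0.117 in WMW-H (SD, n = 5 each), with the AOM/DSS libraries above all others. The Slc18a1 to Tph1 ratio was 0.140 ± 0.0222 in Control, 0.807 ± 0.118 in AOM/DSS and 0.165 ± 0.0130 in WMW-H. Here too AOM/DSS stood clear of the other groups, which overlapped. The Tph1 to Maoa ratio was 0.0875 ± 0.0103, 0.143 ± 0.0197 and 0.122 ± 0.00801 in the same order, lowest in Control. The Maoa to Maob ratio was 20.8 ± 2.07, 14.98 ± 1.29 and 22.5 ± 2.07, lowest in AOM/DSS without overlap.

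**Figure D3:**
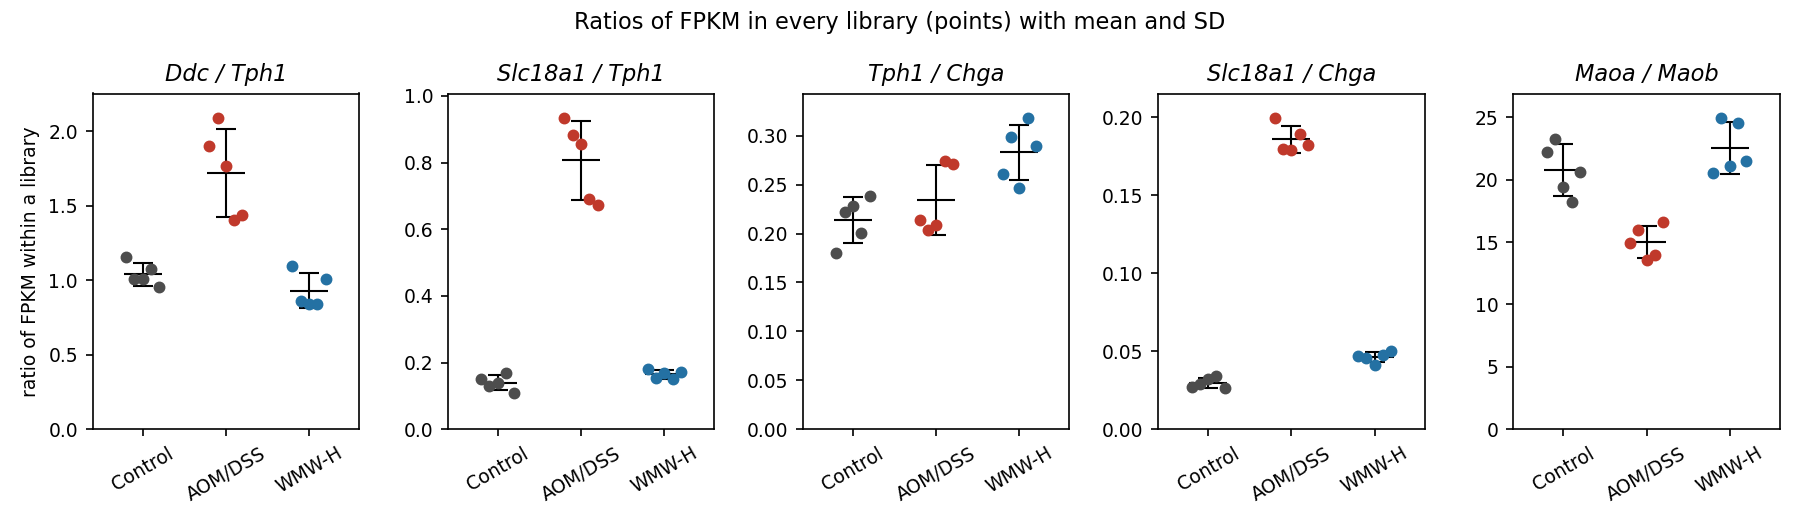
Ratio of FPKM between 2 genes within each of the 15 libraries (vertical axes from 0, each pair on its own scale); points are libraries, bars the mean and whiskers the SD (n = 5). Slc18a1 stands high against both Tph1 and the granule protein gene Chga in AOM/DSS, while Tph1 against Chga overlaps between Control and AOM/DSS.

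Upstream of synthesis, tryptophan enters cells through amino acid transporters. Of 6 listed genes 4 were tested, and in AOM/DSS versus Control all 4 rose, with a median of 0.67 against 0.12 for all genes. Slc7a8, a neutral amino acid exchanger of the basolateral membrane, rose by 1.31 (adjusted p = 1.20e-14), from 5.63 ± 0.282 to 15.4 ± 0.287 FPKM (SD, n = 5). Its partner chain Slc3a2 rose by 0.41, from 50.9 to 67.8 FPKM, the exchanger Slc7a5 by 0.26, from 10.8 to 13.2 FPKM, and the aromatic amino acid transporter Slc16a10 by 0.92, from 1.89 to 4.49 FPKM. The apical transporter Slc6a19 was too low to be tested, at means of 0.420, 0.275 and 0.486 FPKM. In WMW-H versus AOM/DSS the same 4 genes fell, and the list median was -0.56 against -0.07. Slc7a8 fell by 1.24 to 5.96 ± 0.168 FPKM, which was not called against Control (adjusted p = 0.131). Slc7a5 and Slc3a2 were below and Slc16a10 above Control in WMW-H.

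The cofactor list covered tetrahydrobiopterin synthesis and recycling and vitamin B6 activation, 9 genes, all tested. In AOM/DSS versus Control 3 rose, 1 fell and 5 were not called (median 0.08 against 0.12). Gch1, the entry enzyme of tetrahydrobiopterin synthesis, rose by 0.74 (adjusted p = 4.00e-08), from 8.99 ± 0.526 to 15.6 ± 1.00 FPKM (SD, n = 5). Pdxk, pyridoxal kinase, rose by 0.62, from 10.8 to 17.2 FPKM. Qdpr, which recycles the cofactor, fell by 0.25, from 61.4 to 51.4 FPKM. In WMW-H versus AOM/DSS 1 rose and 5 fell (median -0.32 against -0.07). Gch1 fell by 0.34 and Pdxk by 0.62, while Pts, the second enzyme of tetrahydrobiopterin synthesis, rose by 0.57, from 15.97 to 24.3 FPKM. Pts was also 0.55 above Control in WMW-H (adjusted p = 5.12e-06), as Tph1 was. Over the list, 3 were higher and 3 lower in WMW-H than in Control.

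**Figure D4:**
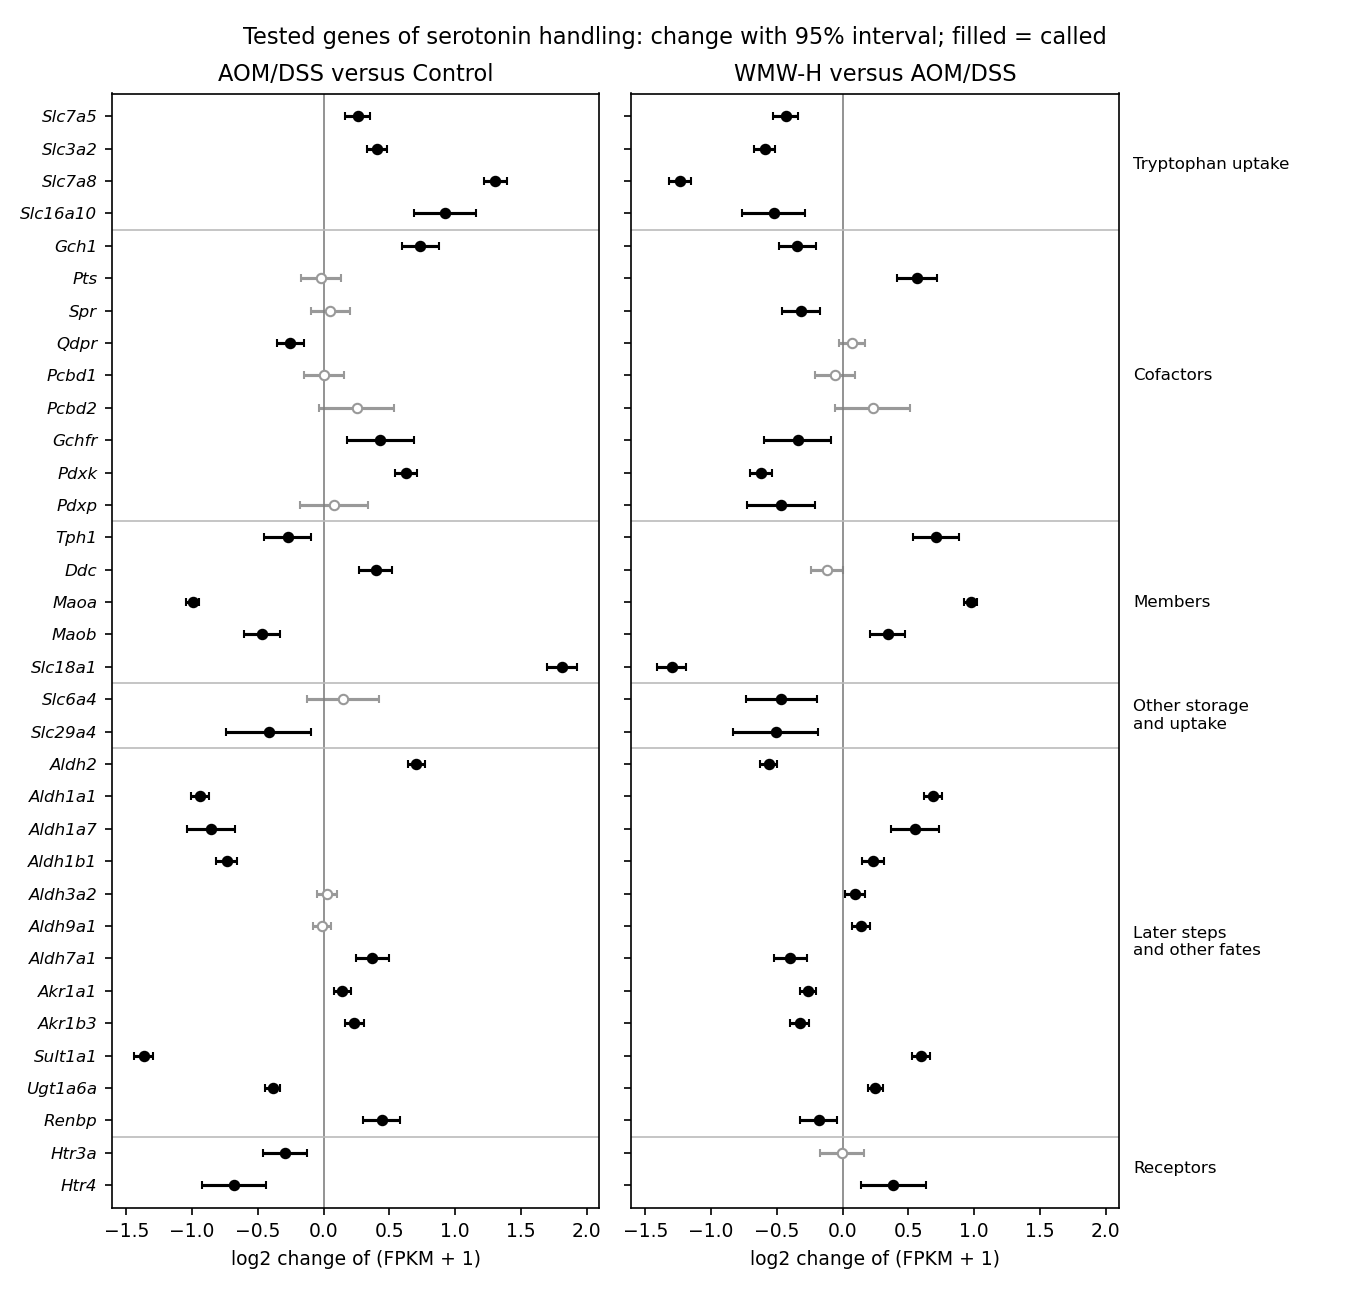
Change in log2(FPKM + 1) with its 95% interval (horizontal axis) for the tested genes of tryptophan uptake, cofactors, the 5 members, other storage and uptake, later steps and receptors, in AOM/DSS versus Control (left) and WMW-H versus AOM/DSS (right). Filled points are called; Slc18a1, Slc7a8 and Aldh2 lie right of 0 on the left and left of 0 on the right, and Maoa, Sult1a1 and Aldh1a1 the reverse.

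Other genes of synthesis, storage and uptake were low. Tph2, the neuronal hydroxylase, was listed at 0 in 13 of 15 libraries and reached at most 0.023 FPKM. Slc18a2, the other vesicular monoamine transporter and the form of neurons and mast cells, was below the filter at 1.10 ± 0.304, 0.613 ± 0.0879 and 0.749 ± 0.157 FPKM (SD, n = 5) in Control, AOM/DSS and WMW-H. The ratio of Slc18a1 to Slc18a2 was accordingly 2.02 ± 0.535, 16.5 ± 2.15 and 4.74 ± 0.894. The serotonin transporter Slc6a4 was not called in AOM/DSS versus Control (0.15, adjusted p = 0.332), at 3.01 ± 0.199 and 3.51 ± 0.892 FPKM. It was lower in WMW-H, at 2.24 ± 0.526 FPKM, by 0.47 against AOM/DSS (adjusted p = 0.00440), though the libraries of these groups overlapped. Against Control it was lower by 0.32 (adjusted p = 0.0421), a call lost in 8 of 26 alternatives, among them without Control replicate 1, 2, 3 or 4 or WMW-H replicate 2, 3 or 5 (adjusted p up to 0.108). The low-affinity carrier Slc29a4 was also lower in WMW-H than in both other groups, at 4.46 ± 1.19, 3.06 ± 0.723 and 1.86 ± 0.563 FPKM in Control, AOM/DSS and WMW-H. Against AOM/DSS the difference was -0.51 (adjusted p = 0.00755), though the WMW-H and AOM/DSS libraries overlapped. In AOM/DSS Slc29a4 fell by 0.42 (adjusted p = 0.0239). The alternatives that lost this call included leaving out Control replicate 3 (-0.30, adjusted p = 0.0750) or AOM/DSS replicate 3 (-0.38, adjusted p = 0.0548) or 4 (-0.36, adjusted p = 0.0646). Of 6 genes of this list 2 were tested, 1 of which fell in AOM/DSS versus Control and both in WMW-H versus each other group. The list medians were -0.14, -0.49 and -0.62 in the 3 comparisons, against 0.12, -0.07 and 0.05 for all genes.

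After monoamine oxidase, aldehyde dehydrogenases turn the aldehyde into 5-hydroxyindoleacetic acid, and sulfotransferases and glucuronosyltransferases conjugate serotonin directly. Of 15 listed genes 12 were tested, with 5 higher and 5 lower in AOM/DSS versus Control (median 0.01 against 0.12). The list also held Renbp, an enzyme of amino sugar metabolism, which was among those that rose. Aldh2, the mitochondrial aldehyde dehydrogenase, rose by 0.71 (adjusted p = 2.07e-12), from 330.4 ± 7.0 to 540 ± 7.18 FPKM (SD, n = 5), opposite to Maoa. Aldh1a1 fell by 0.94, from 124 to 64.1 FPKM, Aldh1b1 by 0.74, from 135 to 80.7 FPKM, and Aldh1a7 by 0.85, from 8.32 to 4.18 FPKM. Sult1a1, a phenol sulfotransferase, fell by 1.37 (adjusted p = 6.42e-16), from 200 ± 4.90 to 76.9 ± 3.98 FPKM, and Ugt1a6a, which glucuronidates serotonin, by 0.39, from 91.7 to 69.8 FPKM. In WMW-H versus AOM/DSS 7 rose and 5 fell (median 0.12 against -0.07). Aldh2 fell by 0.56 to 365 FPKM, while Aldh1a1 rose by 0.69 to 104 FPKM and Sult1a1 by 0.59 to 117 FPKM. Against Control, Sult1a1 was still 0.77 lower and Aldh1a1 0.25 lower in WMW-H, and Aldh2 0.14 higher. Asmt, of melatonin synthesis, was listed at 0 in all libraries.

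Most serotonin receptors were too low to test. Of 14 listed receptors 2 passed the filter, and both fell in AOM/DSS versus Control. Htr4, a receptor that couples to cyclic AMP, fell by 0.68 (adjusted p = 6.67e-05), from 3.12 ± 0.274 to 1.61 ± 0.535 FPKM (SD, n = 5), and was 0.38 higher in WMW-H than in AOM/DSS. Htr3a, a subunit of the ion channel receptor of enteric nerves, fell by 0.29 (adjusted p = 0.00322), from 3.54 ± 0.346 to 2.71 ± 0.399 FPKM. In WMW-H, Htr3a was at 2.69 ± 0.276 FPKM, not called against AOM/DSS (adjusted p = 0.960) and below Control. Htr4 was also below Control in WMW-H (-0.30, adjusted p = 0.0368). The alternatives that lost this call included leaving out Control replicate 2, 4 or 5 or WMW-H replicate 2 or 5 (adjusted p up to 0.0998). Htr1a was listed at 0 in all libraries.

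Enzymes of other amines make up a list of 15 genes that includes Ddc, Maoa and Maob. Of 12 tested, 5 rose and 5 fell in AOM/DSS versus Control (median -0.10 against 0.12). Aoc1, the diamine oxidase that degrades histamine, rose by 0.85 (adjusted p = 2.81e-14), from 39.6 ± 1.09 to 72.2 ± 1.78 FPKM (SD, n = 5). Smox, spermine oxidase, rose by 0.97, from 20.1 to 40.4 FPKM, and Sat1, which acetylates polyamines, by 0.55, from 72.6 to 107 FPKM. Hdc, which makes histamine, rose by 1.27, from 0.272 ± 0.0691 to 2.08 ± 0.340 FPKM. Hnmt, which also degrades histamine, fell by 0.63 (adjusted p = 2.54e-05), to 0.364 of the control mean. Odc1 fell by 0.22, to 0.857 of it. Paox, a polyamine oxidase (-0.15, adjusted p = 0.0822), and Aoc3, another amine oxidase (-0.04, adjusted p = 0.370), were not called. In WMW-H versus AOM/DSS Aoc1 fell by 0.43, Smox by 0.66 and Hdc by 0.49, and Sat1 rose by 0.21, to 124 FPKM. Hnmt rose there by 0.50 and Odc1 by 0.25. The list gave 5 higher and 4 lower there (median 0.04 against -0.07), and 5 higher and 2 lower in WMW-H versus Control. Dbh, which turns dopamine into noradrenaline, fell by 0.43 in AOM/DSS, from 2.6 to 1.67 FPKM, and Th, the entry enzyme of catecholamine synthesis, had means of 0.105, 0.104 and 0.0228 FPKM, too low to test.

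Enterochromaffin cells are a small part of the colon, and in bulk libraries fewer cells of a type and less RNA per cell cannot be told apart. Of 15 markers of these cells, 12 were tested. In AOM/DSS versus Control 7 fell and 2 rose (median -0.29 against 0.12), and the 2 that rose were Slc18a1 and Ddc, while Tph1 was 1 of the 7 that fell. Chga, the granule protein chromogranin A, fell by 0.41 (adjusted p = 2.63e-09), from 71.5 ± 1.13 to 53.5 ± 2.23 FPKM (SD, n = 5). Chgb, chromogranin B, fell by 0.31, from 76.6 to 61.4 FPKM, and Tac1, the substance P precursor, by 0.42, from 10.9 to 7.93 FPKM. In WMW-H versus AOM/DSS 6 rose, Tph1 among them, and 1, Slc18a1, fell (median 0.27 against -0.07). Chga rose by 0.47 to 74.4 FPKM, Tac1 by 0.28 to 9.82 FPKM and Chgb by 0.77 to 105 FPKM. Chgb was 0.45 above Control in WMW-H (adjusted p = 1.11e-08), as Tph1 was, while Chga was not called (0.05, adjusted p = 0.133). The transcription factor genes Lmx1a and Fev were low, with means of 0.354, 0.332 and 0.468 FPKM for Lmx1a and 1.17, 1.00 and 1.12 FPKM for Fev.

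Set against Chga in the same library, the members differed. The Tph1 to Chga ratio was 0.214 ± 0.0235 in Control, 0.234 ± 0.0354 in AOM/DSS and 0.283 ± 0.0286 in WMW-H (SD, n = 5), overlapping between Control and AOM/DSS. The Ddc to Chga ratio was 0.221 ± 0.00920, 0.395 ± 0.0211 and 0.262 ± 0.0342, and the Slc18a1 to Chga ratio 0.0296 ± 0.00329, 0.186 ± 0.00857 and 0.0464 ± 0.00318. The AOM/DSS libraries thus lay above all Control libraries in the ratio of Ddc and of Slc18a1 to Chga, but not in that of Tph1. The other chromogranin also shifted against Chga. Its ratio, Chgb to Chga, was 1.071 ± 0.0262, 1.149 ± 0.0562 and 1.415 ± 0.0527 in the same order, highest in WMW-H without overlap. The standing of Tph1 in WMW-H therefore depends on which chromogranin is the denominator.

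The wider enteroendocrine list takes in the other hormone-producing cells of the epithelium, and shares Chga and Chgb with the list above. In AOM/DSS versus Control 12 of 18 tested genes fell and 1 rose (median -0.41 against 0.12), where 20.6% of all genes fell. In WMW-H versus AOM/DSS 12 rose and 1 fell (median 0.34 against -0.07), where 25.9% of all genes rose. Gcg, the source of glucagon-like peptides, fell by 0.84 from 63.2 to 35.0 FPKM and was 67.4 FPKM in WMW-H. Pyy, peptide YY, was the gene that rose in AOM/DSS, by 0.48 from 84.9 to 119 FPKM. The summed level of the 26 markers was 497 to 516 FPKM in Control, 382 to 413 in AOM/DSS and 510 to 556 in WMW-H, and Gip was at 0 in all libraries. The pancreatic islet list shares Gcg and Sst with it. That list summed to 127 to 146 FPKM in Control, 65.4 to 69.8 in AOM/DSS and 108 to 113 in WMW-H, with Ins2, insulin, at 5.56, 0 and 0.762 FPKM. Gcg alone gave 63.2, 35.0 and 67.4 FPKM of it, so the sum does not measure islet RNA alone. How far islet RNA bore on the member values was not tested. In AOM/DSS Tph1, Maoa and Maob were lower, as the sum of the islet list was, and Slc18a1 and Ddc were higher. Male accessory gland genes, at 2868 to 3002 FPKM in AOM/DSS and at most 4.86 in the other groups, were also higher there. So were 9 of 10 tested Paneth cell markers, while 1 fell. The part of either in the levels of Slc18a1 and Ddc was not tested.

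Mast cells can also hold serotonin, and in mice express Tph1. In AOM/DSS versus Control 8 of 9 tested mast cell markers rose and 1 fell (median 2.27 against 0.12). Mcpt1, a mast cell protease, rose by 3.21 (adjusted p = 1.54e-16), from 4.46 ± 0.723 to 49.1 ± 2.11 FPKM (SD, n = 5), and stood at 41.0 ± 2.11 FPKM in WMW-H. Cpa3 had means of 0.116, 2.11 and 1.48 FPKM. Kit, which pacemaker cells of the gut wall carry as well, fell by 0.68 from 22.8 to 13.9 FPKM. The 12 markers summed to 30.4 to 33.3 FPKM in Control, 109 to 121 in AOM/DSS and 91.1 to 101 in WMW-H. Tph1 was lowest in AOM/DSS, where that sum was highest, and the part of mast cells in the Tph1 level was not tested. Enteric neuron and glia markers fell in AOM/DSS for 9 of 13 tested and rose for 1 (median -0.49), with Vip, vasoactive intestinal peptide, at 21.7, 8.79 and 18.4 FPKM. Their 16 genes summed to 81.5 to 88.0 FPKM in Control, 50.7 to 53.1 in AOM/DSS and 58.5 to 66.3 in WMW-H. AOM/DSS was lowest in these sums as in Maoa and Maob, and the part of nerve in the levels of both was not tested. General epithelial markers summed to 8630 to 8733 FPKM in Control, 8514 to 8649 in AOM/DSS and 7252 to 7678 in WMW-H, so that Control and AOM/DSS overlapped. Of 18 absorptive colonocyte markers 14 fell and 4 rose in AOM/DSS (median -0.32), and their sum was 18120 to 18520 FPKM in Control, 15410 to 15690 in AOM/DSS and 16850 to 17330 in WMW-H. Of 11 tested small-intestinal enterocyte markers 8 fell and 2 rose in AOM/DSS (median -0.60), and the sum of the 16 listed was 367 to 380.4 FPKM in Control, 250.3 to 265 in AOM/DSS and 343 to 354 in WMW-H. These sums too were lowest in AOM/DSS, as Maoa and Maob were, and the part of absorptive cells in the levels of both was not tested.

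Closeness to each member across the 15 libraries was taken as the root mean square difference of log2(FPKM + 1), each gene centred on its own mean. The closest tested genes were listed, leaving out Gm and Rik models and other provisional or -ps symbols. For Slc18a1 they were Tbx3 (0.0665), Myrf (0.0750) and Axin2 (0.0871). Their means in Control, AOM/DSS and WMW-H were 4.74, 18.6 and 7.41 FPKM for Tbx3, 0.439, 3.97 and 1.00 for Myrf and 14.2, 47.4 and 19.6 for Axin2. For Maoa they were Hkdc1 (0.0438), Rnase4 (0.0684) and Rgs5 (0.0726), with Hkdc1 at 20.5, 9.75 and 19.8 FPKM. For Tph1 they included Erlin1 (0.118) and Coa6 (0.122), both highest in WMW-H, with Erlin1 at 14.8, 13.2 and 19.7 FPKM. For Ddc they were Hnrnpa0 (0.0577), Ftl1 (0.0630) and Klhdc2 (0.0706), and for Maob Lss (0.0814), Sytl2 (0.0816) and Neu1 (0.0836). Whether any of these genes shares regulation with a member was not tested.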

How the data were processed

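RNA of mouse colon was measured in 15 libraries, 5 in each of 3 groups taken from the treatment label. Poly(A) RNA was selected and made into NEBNext libraries for Illumina sequencing, per the labels' protocols. Tools named in the submitters' processing notes, in no stated order, are HISAT2, RSEM, StringTie 1.3.1, Bowtie2 2.2.8 and fastp 0.18.0, and the genome build was not given in the sources used here. The authors deposited 1 table of FPKM values, with identifier and symbol for 22063 genes, of which 3664 were listed at 0 in all libraries. Library totals ran from 507895 to 535410 FPKM.

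From these, 12917 genes that reached 1 FPKM in 5 or more libraries were kept, and log2(FPKM + 1) was fitted with limma 3.58.1 (R 4.3.3) over all 15 libraries together, a group mean each, with a trended prior. Tests were two-sided, and p-values were adjusted by the Benjamini-Hochberg method over the 12917 genes, with a threshold of 0.05. The pseudocount makes the scale understate changes of low genes. The procedure was run on simulated data with independent noise and most genes unchanged. The real libraries differ in composition, which the simulation did not include, so it does not test the calls made here. Depth was found from the steps of low FPKM values of 3328 genes with 1 annotated transcript in GENCODE M21. At the depths found, 86.6 to 91.6% of such values lay within 0.1 of a whole fragment, where chance gives 20%. For 4 of 5 members, with several transcripts, fragment counts were not recoverable, and no count test was run.

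The members and gene lists were chosen with earlier results of these data known. Named genes are the members, and up to 6 genes of smallest p per pathway list with some fixed entries. They also include the most abundant and some fixed markers, and the 3 genes most like each member. Asmt, Slc6a19, Htr1a, Renbp, Paox, Aoc3, Hnmt and Gip were named after their values were seen. A few genes on the pathway lists, or taken by this rule, are not reported here, and the counts leave them out. Alternatives covered pseudocount, filter, scaling (TPM, size factors, quantiles, a common total without the pancreatic, male gland and Paneth lists), prior, libraries fitted, a replicate block, exact permutation and leaving out each library. Promoter windows came from RefSeq GRCm38.p6. Figures were drawn with matplotlib 3.10.9.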

Additional observations from a re-analysis of the deposited data

Results flagged for a closer look

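In 9 of 171 gene and group combinations, 1 of the 5 libraries lay far from the other 4 relative to the range, where chance gives about 1 in 20; none concerned a member. WMW-H replicate 3 accounted for 4: Aldh1b1 at 84.8 FPKM (the others 96.5 to 98.9), Aldh1a7 at 7.69 (6.24 to 6.30), Chgb at 118 (99.8 to 104) and Klhdc2 at 17.5 (20.2 to 20.9). AOM/DSS replicate 2 was high in Aldh1b1, at 87.1 FPKM (78.5 to 79.6), and in Htr3a, at 3.40 (2.44 to 2.71). Slc7a5 was high in WMW-H replicate 1, at 10.4 FPKM (9.09 to 9.44). Hkdc1 was high in AOM/DSS replicate 5, at 10.4 FPKM (9.43 to 9.69). Erlin1 was high in Control replicate 5, at 15.5 FPKM (14.5 to 14.8).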

How the results depend on the processing

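The 12 called member differences kept their direction and their call in each of the 26 alternatives run, and of 2158 alternative values for 31 other named genes 2140 kept both, the other 18 losing the call only (Slc29a4 in AOM/DSS versus Control, Slc6a4 and Htr4 in WMW-H versus Control). The 3 uncalled member differences depended on scaling. Ddc in WMW-H versus AOM/DSS was called with TPM (-0.17, adjusted p = 0.0207) and with a common total without the pancreatic, male gland and Paneth lists (-0.16, adjusted p = 0.0264), which made 2 members lower in place of 1; leaving out 1 library gave -0.151 to -0.0604, with 1 or 2 members lower. In WMW-H versus Control, Maoa was called with size factors (-0.0724, adjusted p = 0.00908) and the common total (-0.0808, adjusted p = 0.00604), and Maob with size factors (-0.17, adjusted p = 0.0309), quantile normalization (-0.20, adjusted p = 0.0124) and the common total (-0.18, adjusted p = 0.0273). The members called were 5, with 2 lower, under size factors and the common total, and 4, with 1 lower, with quantile normalization. The cause was not tested. Quantile normalization gave 3765 genes higher and 4167 lower in AOM/DSS versus Control, against 5881 and 2658; the share of calls that were higher in WMW-H versus AOM/DSS was 38.8%, 47.5% with size factors and 49.6% with quantiles, and in WMW-H versus Control 59.5%, 50.6% and 48.0%.

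Replicate numbers did not pair the libraries: deviations of same-numbered libraries correlated at -0.05 to 0.03 over 15 pairs, and 1 of 15 libraries correlated best with its own number. With the replicate number as a block, 5849 genes were higher and 2636 lower in AOM/DSS versus Control, and no member's call changed. Exact permutation of single members, two-sided, gave 0.00794, the smallest possible p, except Tph1 in AOM/DSS versus Control (0.0476), Ddc in WMW-H versus Control (0.0238) and the 3 uncalled differences (0.119 to 0.381). Tph2, Slc18a2 and 12 of 14 receptors did not reach the filter and were not tested.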
